A study of Mus musculus with 2 samples.

Results

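The genes described here encode the platelet-derived growth factor ligands (Pdgfa, Pdgfb, Pdgfc and Pdgfd), the vascular endothelial growth factor ligands (Vegfa, Vegfb, Vegfc and Vegfd) and both PDGF receptors (Pdgfra and Pdgfrb). They were chosen by name rather than by a cut on their values, though earlier results of these data were known. The rows taken were those of the expression table whose only gene symbol was one of these 10. This gave 9 genes of 30142 named genes in all, each with 1 row, and Vegfd was listed under its older symbol Figf. Pdgfra was the exception, because its row also listed Mir7025, a microRNA whose hairpin lies within the Pdgfra gene in the RefSeq annotation of GRCm38.p6. Its value is therefore given as that of a shared row and enters no count.

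The study compared cultured stromal cells of fat, which are adherent cells with features of fibroblasts and of progenitors, from wild-type C57BL/6J mice and from C57BL/6J mice with a global knockout of Wisp1, with 1 array per genotype. Mice of both genotypes were 6 to 10 weeks old, the inguinal fat pad was the source of the cells, and they were grown in DMEM with 15% fetal bovine serum. The knockout was made by placing loxP sites around Wisp1 exons 1 to 5 and mating with a mouse line labelled Cre-neo, whose promoter is not named in the labels. The labels do not say how many mice gave cells, whether these were pooled, or whether a selection cassette remains. The study title concerns cartilage formation in heterotopic ossification, in which bone forms outside the skeleton.

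PDGF ligands are secreted as disulfide-linked dimers that bind 2 receptor tyrosine kinases, PDGFRα and PDGFRβ, and drive the growth and migration of mesenchymal cells. PDGF-A and PDGF-B are cut inside the cell by proprotein convertases, whereas PDGF-C and PDGF-D carry an amino-terminal CUB domain that must be removed outside the cell before they can bind. Both receptors are widely used to mark stromal cells of fat, PDGFRα on adipocyte and fibroblast progenitors and PDGFRβ also on pericytes. The related VEGF ligands act mainly on endothelial cells, and stromal cells are a source of these ligands in tissue. On blood vessels VEGF-A acts through VEGFR1 or VEGFR2 and VEGF-B through VEGFR1. VEGF-C and VEGF-D act chiefly through VEGFR3 on lymphatic vessels.

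The values are log2 expression values per transcript cluster, a set of probes for 1 transcript unit, and each difference was taken as knockout minus wild type. With 1 array per genotype there was no replicate spread, no test and no p-value, so a difference compares these 2 arrays rather than the genotypes, and overlap between groups cannot be judged. In RNA from a whole culture, fewer cells of a type and less RNA per cell cannot be told apart. Probes differ in brightness, so levels of different genes were not compared as amounts of RNA. Levels served only for the filter, to find genes of similar level, and to describe the marker lists. Wisp1 (Ccn4) itself was at 7.79 in wild-type cells and 5.40 in knockout cells, which goes with the labels. Whether its probes all lie in the deleted exons was not analysed here.

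The 3 members that differed most were Pdgfc and Vegfa, which were higher, and Vegfd, which was lower, and the sequence before the transcription start of each is printed first. Promoter sequences were taken from a set of promoter entries based on RefSeq (GRCm38.p6). The set used here held an entry for 8 of the 10 genes and none for Pdgfb and Pdgfrb. Each line below gives the 250 bases that end just before the annotated start, 5′ to 3′ on the strand of the gene. Capitals mark matches on either strand to GGGCGG (the GC box), ACGTG (the core of the hypoxia response element), TATAAA (the sequence that places the polymerase), CCAAT (the site of the factor NF-Y), the AP-1 site written as TGANTCA, or the CArG box bound by serum response factor, a motif set chosen with the sequences in view. The 3 windows lie at chr3:81036166-81036415 on the plus strand for Pdgfc, at chr17:46032378-46032627 on the minus strand for Vegfa and at chrX:164373272-164373521 on the plus strand for Vegfd.
Pdgfc: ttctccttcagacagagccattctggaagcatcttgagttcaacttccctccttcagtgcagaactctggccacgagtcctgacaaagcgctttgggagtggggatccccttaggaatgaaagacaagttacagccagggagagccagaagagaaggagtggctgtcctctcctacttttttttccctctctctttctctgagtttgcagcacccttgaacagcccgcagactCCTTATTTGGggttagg
Vegfa: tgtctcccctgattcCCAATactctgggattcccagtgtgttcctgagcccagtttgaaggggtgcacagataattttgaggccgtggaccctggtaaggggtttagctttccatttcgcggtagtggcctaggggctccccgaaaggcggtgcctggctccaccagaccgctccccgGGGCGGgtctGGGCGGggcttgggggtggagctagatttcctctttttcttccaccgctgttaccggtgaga
Vegfd: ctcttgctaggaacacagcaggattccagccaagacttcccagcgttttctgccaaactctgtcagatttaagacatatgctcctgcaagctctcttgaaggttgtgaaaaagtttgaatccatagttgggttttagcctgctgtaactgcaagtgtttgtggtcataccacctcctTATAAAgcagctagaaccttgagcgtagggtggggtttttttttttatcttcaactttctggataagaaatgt

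The windows have little in common. That of Pdgfc held a CArG box 17 to 8 bases before the start and no other match, and 1.47% of all 32851 promoter entries hold a CArG box in a window of this length. That of Vegfa held GC boxes at 72 to 67 and 62 to 57 bases before the start and a CCAAT match at 235 to 231, and these motifs are common (32.7% and 33.8% of all entries). That of Vegfd held a TATAAA match 73 to 68 bases before the start, as did 12.4% of all entries in some position. Neither ACGTG (16.6% of all entries) nor TGANTCA (6.75%) occurred in any of the 3 windows. RefSeq has a second entry for Vegfa, at a start inside the gene and not printed here. Its window held an ACGTG match 211 to 207 bases before that start, a GC box at 158 to 153 and a CCAAT match at 60 to 56. The stretch around this ACGTG match reads as coding sequence of the VEGF-A protein, so the match is not described as a promoter element. The hypoxia response element known for Vegfa lies farther upstream than the printed window. The GC content was 50.8% for Pdgfc, 59.2% for Vegfa and 42.4% for Vegfd, beside a median of 52.4% over all entries. Such matches describe letters only, and the data hold no measurement of binding.

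**Figure D1:**
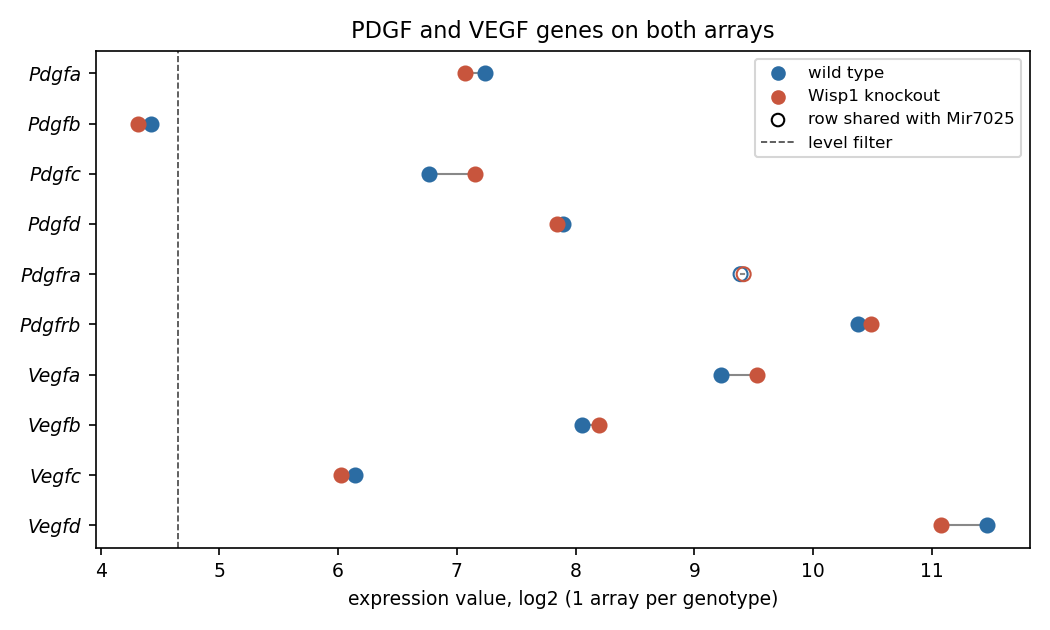
Log2 expression value of each gene (x axis) on the wild-type array (blue) and the Wisp1 knockout array (red), with open circles for the Pdgfra row that is shared with Mir7025 and a dashed line at the level filter of 4.65. Within each row the knockout lies right of wild type for Pdgfc, Vegfa, Vegfb and Pdgfrb and left of it for Pdgfa, Pdgfb, Pdgfd, Vegfc and Vegfd. Levels of different genes are not comparable.

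Among the PDGF ligands, Pdgfc was higher in the knockout and the other 3 were lower, by amounts of which only that of Pdgfc was past 1.2-fold. Pdgfc, which encodes a CUB-domain ligand that signals mainly through PDGFRα, was at 6.76 in wild-type cells and 7.15 in knockout cells, a difference of 0.39 or 1.31-fold higher. Pdgfd encodes the other CUB-domain ligand, which acts through PDGFRβ. It was at 7.89 and 7.84, a difference of -0.05. Pdgfa, the classical ligand of PDGFRα, went the other way from Pdgfc, from 7.24 in wild type to 7.07 in the knockout (-0.17, or 1.12-fold lower). The distance between the differences of Pdgfc and Pdgfa, 2 ligands of the same receptor, was 0.56 log2 units. Pdgfb encodes the ligand that endothelial cells use to recruit pericytes, and its value was 4.43 in wild-type cells and 4.32 in knockout cells (-0.11). It was the only member below the level filter, the median of all named genes (4.65), and so entered none of the counts over genes that passed.

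The receptors differed little. Pdgfrb was at 10.38 in wild-type cells and 10.49 in knockout cells (0.11, or 1.08-fold higher). The row shared by Pdgfra and Mir7025 was at 9.39 and 9.42 (0.03). The difference of that row was -0.0062 after quantile normalization and -0.0033 after loess centring, so no direction is given for Pdgfra. Both rows were above the filter on both arrays.

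Among the VEGF ligands, Vegfa and Vegfb were higher in the knockout and Vegfc and Vegfd were lower. Vegfa encodes the main driver of blood vessel growth and permeability. It was at 9.22 in wild-type cells and 9.52 in knockout cells, 0.30 or 1.23-fold higher. Vegfb encodes a ligand of VEGFR1, and it was also higher, at 8.05 and 8.20 (0.14). The ligands of lymphatic vessels were on the other side. Vegfd was at 11.47 in wild-type cells and 11.08 in knockout cells, a difference of -0.39 or 1.31-fold lower. Vegfc was at 6.15 and 6.03 (-0.12, or 1.09-fold lower). The differences of Vegfa and Vegfd lay 0.69 log2 units apart, the widest distance within the family, and those of Vegfa and Vegfc 0.42 apart. This division rests on 2 genes a side and has no replicate behind it.

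None of the 8 members that passed the filter reached a 2-fold difference, where 0.166% of the 15072 named genes that passed did, and none reached 1.5-fold, where 1.18% did. At 1.2-fold, a size chosen after the values were seen, 3 of the 8 were past it, against 10.7% of all genes that passed. Pdgfc and Vegfa were 2 of these on the higher side (6.4% of all genes) and Vegfd was 1 on the lower side (4.27%). Of all genes past 1.2-fold 60.0% were higher, a share that was 46.7% after quantile normalization and 48.8% after loess centring, and Pdgfc, Vegfa and Vegfd were past 1.2-fold on the same sides under these settings as well. Of all genes past 1.5-fold 60.7% were higher, against 49.4% after quantile normalization. Over all genes that passed the filter the median difference was 0.03, and the central 95% of differences ran from -0.33 to 0.37. Pdgfc and Vegfd lay just outside that span and Vegfa inside it. A difference as low as that of Vegfd or lower was found in 231 of the genes that passed (1.53%), and one as high as that of Pdgfc or higher in 333 (2.21%). For Vegfa the corresponding share was 4.56%, and for Pdgfa, on the lower side, 9.38%. The shares were 20.1% for Vegfb, 26.4% for Pdgfrb, 14.8% for Vegfc and 29.0% for Pdgfd. Among genes within 0.5 log2 units of its own mean level, the share was 1.64% for Vegfd (304 genes), 2.43% for Pdgfc (3502 genes) and 6.40% for Vegfa (797 genes). These shares place the members among other genes on the same arrays and are not error rates. The 8 members split into 4 higher and 4 lower (median 0.03), and over all 9 members with a row of their own into 4 higher and 5 lower (median -0.05), so that the sign of the median turns on Pdgfb. Over the 15072 genes that passed 8580 were higher (56.9%), 6021 lower and 471 equal. The higher and lower counts became 7290 and 7770 after quantile normalization and 7559 and 7513 after loess centring. Over all named genes 14161 were higher and 14278 lower, and the median was 0.

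**Figure D2:**
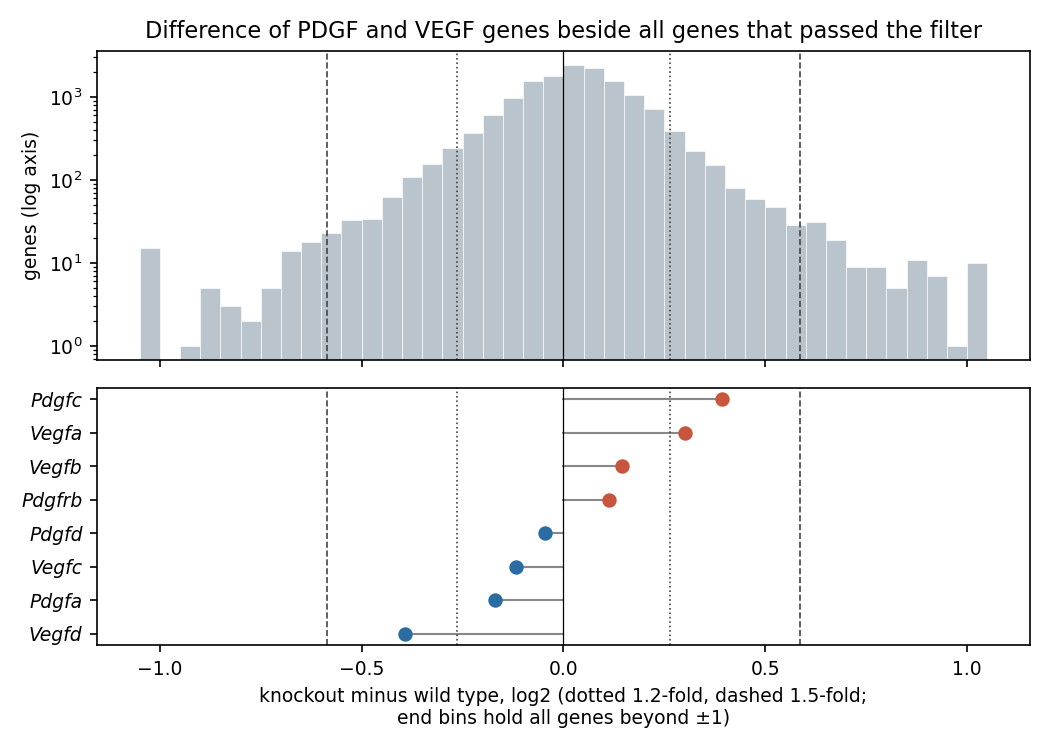
Top, number of genes (log axis) by difference, in log2 units (knockout minus wild type), for the 15072 genes that passed the level filter, with end bins that hold every gene beyond 1 or -1. Bottom, the difference of each of the 8 members that passed. Dotted lines mark 1.2-fold and dashed lines 1.5-fold, and Pdgfc (0.39), Vegfa (0.30) and Vegfd (-0.39) lie between the dotted and the dashed lines.

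Genes that release the active ligands were examined next. Of 10 measured genes of ligand activation 7 were higher and 3 lower (median 0.05, beside 0 over all named genes). After quantile normalization or loess centring 5 were higher and 5 lower. Over the 8 that passed the filter 6 were higher and 2 lower, where 56.9% of all genes that passed were higher. Pcsk5, a proprotein convertase able to process growth factor precursors of both families, was at 5.97 in wild-type cells and 6.68 in knockout cells, a difference of 0.71 or 1.64-fold higher. It was the only gene of this list past 1.5-fold. Furin, the most widely used convertase of these precursors, was at 7.33 and 7.39 (0.06), and was named after its value was seen. Plau encodes urokinase, which can cut the CUB domain from PDGF-D, and it was at 9.02 in wild-type cells and 8.62 in knockout cells (-0.39). Plat encodes tissue plasminogen activator, which cuts that of PDGF-C, and was named after its value was seen. It was at 7.99 and 8.20 (0.21). Adamts2 had no row with its symbol and was not analysed here.

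Receptors for the VEGF ligands gave values near or below the filter, and none passed 1.5-fold. Of the 5 measured genes of this list 2 were higher, 2 lower and 1 equal, with a median of 0, and under quantile normalization or loess centring 1 was higher and 4 were lower. Kdr encodes VEGFR2 and was at 3.49 in wild-type cells and 3.56 in knockout cells, below the filter. Flt1 (VEGFR1) was at 4.86 and 4.77 (-0.09), and Flt4 (VEGFR3) had the same value on both arrays, 4.86. Such ties are not rare, as 471 of the genes that passed the filter had equal values. Nrp2, a coreceptor for the lymphatic ligands, was at 7.37 and 7.39 (0.03, or -0.01 after quantile normalization or loess centring). Nrp1, a coreceptor of VEGF-A, sits in a row with several symbols, at 7.74 and 7.66 (-0.08). Pgf encodes placental growth factor, a further ligand of VEGFR1, and was lower by 0.31 (4.42 to 4.11), below the filter. Kdr, Flt4, Nrp1 and Nrp2 were named for their place in the pathway after their values were seen.

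Proteins that hold these ligands in the matrix or act beside the receptors were measured with 6 genes, 3 higher and 3 lower. Of all named genes 14161 were higher and 14278 lower. Their median was -0.0038 and turned above 0 after quantile normalization (0.0409), so no direction is given for it. Lrp1, a coreceptor of PDGFRβ, had a difference of 0.12 (10.70 to 10.82), and Ccn2, a CCN protein that binds VEGF-A, one of -0.13 (10.96 to 10.84). No gene of this list reached 1.5-fold.

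Downstream of the receptors, adaptors, kinases and phosphatases of signal relay gave 20 higher and 6 lower of 26 measured genes, with a median of 0.07, and 16 higher and 10 lower after quantile normalization or loess centring. All 26 passed the filter, and of all genes that passed 8580 of 15072 were higher (median 0.03). Cblb, a ubiquitin ligase that turns off activated receptors, was at 8.60 in wild-type cells and 9.05 in knockout cells (0.46, or 1.37-fold higher). Ptpn11, the phosphatase SHP2 that carries the signal to RAS, was at 8.53 and 8.30 (-0.24). No gene of this list was past 1.5-fold.

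Of 14 genes induced by growth factor signalling through ERK 11 were lower and 3 higher (median -0.11). All 14 passed the filter, and of all genes that passed 6021 of 15072 were lower, or 7770 after quantile normalization. Dusp4, a phosphatase that switches off ERK, was at 7.16 in wild-type cells and 6.61 in knockout cells (-0.55, or 1.47-fold lower). Egr1, an immediate early transcription factor, was at 7.06 and 7.68 (0.63, or 1.55-fold higher), the only gene of the list past 1.5-fold. Other lower members, named after their values were seen, were Dusp6 (-0.39), Phlda1 (-0.35) and Fosl1 (-0.30). The remaining higher members, Ier3 (0.22) and Spry2 (0.15), were likewise named with their values in view.

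Vegfa is a textbook target of the hypoxia-inducible factors, and 13 other such targets were set beside its difference of 0.30. Of these 11 were higher and 2 lower (median 0.28), and over the 11 that passed the filter 9 were higher and 2 lower, where 56.9% of all genes that passed were higher. Bnip3, a mitophagy receptor, was highest, from 7.78 to 8.38 (0.60), followed by the oxygen sensor Egln3, from 6.18 to 6.73 (0.55). The glucose transporter gene Slc2a1, chosen with its value in view, had a difference of 0.27. Adm (-0.19) and Ndrg1 (-0.43) were lower, likewise named after their values were seen. Members of this group other than Vegfa were already known to be higher on these arrays when the list was written, and its part in the difference of Vegfa was not tested.

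**Figure D3:**
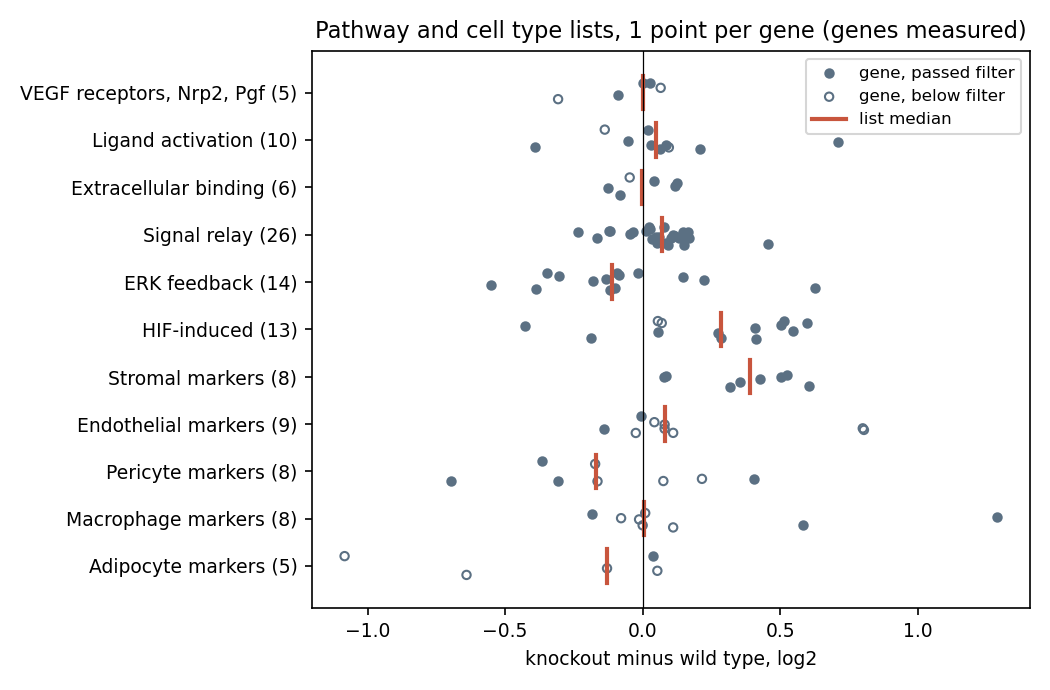
Difference in log2 units (x axis, knockout minus wild type) of each gene in the pathway and cell type lists, with filled circles for genes that passed the level filter, open circles for genes below it, a red bar at the list median and the number of measured genes in parentheses. The HIF-induced list (median 0.28) and the stromal markers (0.39) lie to the right, the ERK feedback list (-0.11) and the pericyte markers (-0.17) to the left.

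Marker genes were used to check the labelled cell type and the other cells that could carry these growth factors and receptors. All 8 measured stromal fibroblast markers were above the filter and higher in the knockout, where 56.9% of all genes that passed were higher. They had a median level of 9.43 in wild-type and 9.63 in knockout cells and a median difference of 0.39. Thy1 (0.09) and Cd34 (0.08), named after their values were seen, differed least. Col1a2, a fibrillar collagen gene, had a difference of 0.52, and Lum, a collagen-binding proteoglycan gene, one of 0.60 (1.52-fold higher). Of 9 endothelial markers only 2 passed the filter, and their median level was 4.15 in wild-type cells and 4.29 in knockout cells. Their differences were higher for 6 and lower for 3, with a median of 0.08. Over all named genes, the base for the marker lists that follow as well, 14161 were higher and 14278 lower. Cdh5 (3.81 to 4.62) and Emcn (3.24 to 4.04) were 0.80 higher, both below the filter, and those that passed it, Tek (-0.14) and Cldn5 (-0.01, or 0.01 after median centring), were named after their values were seen. Of 8 pericyte markers 4 passed the filter, 5 were lower and 3 higher, and the median difference was -0.17. Among the 4 that passed, 3 were lower and 1 was higher. Cspg4 (-0.365) and Notch3 (-0.31), named after their values were seen, were among the lower. Mcam, an adhesion molecule, was 0.69 lower on the log2 scale (8.51 to 7.82, a difference of -0.69), and the muscle filament gene Des was 0.41 higher (4.90 to 5.30), while Pdgfrb, itself often used as a pericyte marker, differed by 0.11. Macrophage markers had a median difference near 0 (0.0047), and 3 of 8 passed the filter. Lyz2 (1.29), which is nearly identical to Lyz1 and uncertain as a separate measurement, and Cd68 (0.58) passed the filter and were higher, and Cd14 (-0.18), named after its value was seen, passed it and was lower. Over the whole list 4 were higher, 3 lower and 1 equal. Of 5 measured adipocyte markers 1 passed the filter. The list had 2 genes higher and 3 lower, with a median of -0.13. The gene that passed, Plin1, named after its value was seen, had a difference of 0.04. Retn (4.90 to 3.81, -1.08) and Adipoq (4.50 to 3.86, -0.64) were lower and below the filter. The part of any of these cell types in the differences of the PDGF and VEGF genes was not tested.

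The directions of the 9 members did not turn under median centring, quantile normalization or loess centring. The mean over clusters and the keeping of clusters with several symbols could not change them, because each has 1 cluster with 1 symbol. Pdgfc ranged from 0.34 to 0.41, Vegfa from 0.27 to 0.32 and Vegfd from -0.42 to -0.38. Pdgfa ranged from -0.23 to -0.15, Vegfc from -0.15 to -0.10, Vegfb from 0.11 to 0.16, Pdgfrb from 0.09 to 0.13, Pdgfb from -0.11 to -0.10 and Pdgfd from -0.09 to -0.03. These treatments use the same 2 arrays and do not replace replicates.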

How the data were processed

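Total RNA of 1 wild-type and 1 knockout sample was extracted with TRIZOL and labelled with the Affymetrix GeneChip WT PLUS kit, per the labels' protocols. The deposited table holds log2 values, 1 per transcript cluster and array, which the authors computed by RMA in Partek, per the submitters' processing notes. Versions, the arrays normalized together and the build of the array design are not given in the sources used here. That the scale is log2 follows from the range of the values (medians 3.93 and 3.92). RMA equalizes the arrays, which hides any change common to most genes, and it shrinks differences at low signal. The number of arrays limits the precision.

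Of 65956 clusters 30604 had 1 symbol in the platform annotation, which can be old, 2146 had several and 33206 none, which are unnamed here. Symbols were updated by Entrez ID through the RefSeq table of GRCm38.p6 (22818 found, 827 renamed). The cluster with the highest mean was kept per gene. Counts used the 15072 genes at or above the median level (4.65). Named genes were all members and, per list, those past 1.5-fold and no fewer than the 2 farthest from 0. Other genes are said in the text to be named after their values were seen. The members and lists were chosen with earlier results of these data known. Alternatives were median centring, quantile normalization, loess centring (span 0.3), the mean over clusters, several-symbol clusters kept, other folds and filters, and list means. Computations used Python 3.11.15 (pandas 2.3.3 and numpy 2.4.6), with loess from statsmodels 0.14.6 and plots from matplotlib 3.10.9. They were tested on simulated data, in which the planted changes of genes were larger than the difference of any member. The test therefore does not cover differences of the size described here.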

Additional observations from a re-analysis of the deposited data

How the results depend on the processing

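No paired analysis was possible because each genotype has 1 array, and for the same reason no replicate could be left out. A value was taken as moved when it shifted by more than 0.1 log2 units or changed sign, and a count when it shifted by more than 1.5 times. Of 155 recomputed values 134 did neither and 21 moved, and none of those 21 is the difference of a member. Part of the 134 could not have moved. The mean over clusters and the keeping of several-symbol clusters leave the difference of each member as it was. The tally is therefore no measure of how firm the results are. The count of genes past the fold went from 10 higher and 15 lower at 2-fold to 108 and 70 at 1.5-fold and to 965 and 644 at 1.2-fold, the last chosen after seeing the data. No other setting moved it. The median of the VEGF receptor list, 0 as reported, was -0.0115 under quantile normalization, -0.0129 under loess centring, -0.039 with several-symbol clusters kept and -0.0611 as a mean. The extracellular binding list, -0.0038 as reported, was 0.0113 under median centring, 0.0409 under quantile normalization, 0.0119 under loess centring, 0.0042 as a mean and 0.0396 over members that passed the filter, so no direction is given for it. Over members that passed the filter the medians were 0.41 for the HIF-induced list, -0.0736 for endothelial, -0.34 for pericyte, 0.58 for macrophage and 0.0372 for adipocyte markers. As means, endothelial markers were 0.19, macrophage markers 0.21 and adipocyte markers -0.35. Why these lists moved was not tested.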
